A study of Mus musculus with 4 samples.

Results

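The genes described here are the 10 mouse genes that encode the TGF-beta ligands (Tgfb1, Tgfb2 and Tgfb3), the TGF-beta receptors (Tgfbr1, Tgfbr2 and Tgfbr3) and the latent TGF-beta binding proteins (Ltbp1, Ltbp2, Ltbp3 and Ltbp4). They were chosen by gene symbol, and all 10 were found among the 26322 genes listed. Expression was measured in MC38 cells, a mouse colon carcinoma line, at least 1 week after electroporation with a complex of Cas9 and a guide RNA. The WT group (sgNT) received a non-targeting guide and the CbfbKO group (sgCbfb) a guide against Cbfb, which encodes CBFβ, the partner of the RUNX transcription factors. Both groups had therefore been electroporated with Cas9, and whether single clones were picked is not given in the sources used here. There were 2 libraries in each group. The labels do not say whether replicates came from separate cultures, so that p-values rest on the spread between these libraries, which may be technical. The fit also draws the spread of each gene towards that of genes at a similar level.

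TGF-beta is a secreted dimer that holds back proliferation of epithelial cells and drives matrix production and mesenchymal traits. Each ligand is made with a propeptide that keeps it latent, and the propeptide is bound by a latent TGF-beta binding protein that anchors the complex in the matrix until integrins or proteases release the ligand. Free ligand binds the type II receptor, which phosphorylates the type I receptor, and this in turn phosphorylates SMAD2 and SMAD3. RUNX proteins are known partners of these SMADs on DNA. The study compared the transcriptomes of CbfbKO and WT cells, and the upstream genes of this pathway are followed through that comparison here.

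The 4 libraries were made by 3′ mRNA sequencing, in which a transcript gives reads from its end only. Levels of different genes can therefore be set side by side without scaling to length. Whether the 3′ ends of all genes were captured equally well was not tested. The libraries held between 3189035 and 3907936 reads counted on genes, and 1 read was worth between 0.256 and 0.314 CPM, the count scaled to the library total. Levels below are log2 CPM as the authors deposited them, with a prior count of 2, or reads and CPM recovered from these values. The prior count draws the differences of low genes towards 0. Cbfb itself had 295 and 285 reads in WT and 125 and 125 in CbfbKO libraries, and its mRNA in CbfbKO cells was 41.5% of the WT level. The 10 colon epithelial markers examined, Epcam, Krt8 and Krt18 among them, summed to 6 and 6 reads in WT and to 5 to 7 in CbfbKO libraries, and Krt18, Cdx1, Vil1 and Lgals4 had no reads in any library, although the labels give the cells as colorectal cancer. The 8 leukocyte markers summed to at most 1 read in any library. The 7 fibroblast markers summed to 576 to 631 reads in WT and 464 to 531 in CbfbKO libraries, with Lum at 0 throughout. Of these, Col3a1 had 386 and 354 reads in WT and 217 and 197 in CbfbKO libraries, while Pdgfra had 121 and 91 in WT and 169 and 152 in CbfbKO. Dcn had 110 and 115 in WT and 116 and 95 in CbfbKO. The other fibroblast markers were low, so that the sum does not stand for the whole set. Col1a1 had 8 and 9 reads in WT and 13 and 12 in CbfbKO. Pdgfrb had 4 and 6 against 16 and 7, and Col1a2 had 2 and 1 against 0 and 1. The 3 endothelial markers summed to 1 or 2 reads. In a culture of many cells, fewer cells with a transcript and less transcript per cell cannot be told apart.

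None of the 10 genes differed between CbfbKO and WT cells past an adjusted p-value of 0.05. Of the 10, 9 passed the filter on low values and were tested, and Ltbp2 was too low to test. By limma with Benjamini-Hochberg adjustment, 0 of the 9 were called, while 2.83% of the 12207 genes tested were called (345 genes, of which 192 or 1.57% were higher and 153 or 1.25% lower in CbfbKO). At an unadjusted p-value under 0.05 there were 3 of the 9 (Tgfb2, Tgfbr3 and Ltbp3), and 14.9% of all tested genes were under this value. Voom on the recovered reads also called 0 of the 9. Fits with the replicate number as a block or with a minimum of 5 CPM each called 1, Ltbp3. Over all genes, the calls fell to 115 higher and 86 lower without WT replicate 1, to 104 and 75 without WT replicate 2, and to 0 without either CbfbKO library (1104 and 1169 genes at an unadjusted limma p under 0.05), and Cbfb itself was not called in the last pair of fits. The CbfbKO and WT libraries did not overlap for 7 of the 9 genes, 3 higher and 4 lower in CbfbKO. Over all tested genes the groups did not overlap for 44.1% (27.4% higher and 16.8% lower). The median log2 fold change of the 9 was -0.04, and that of all tested genes was 0.04.

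**Figure D1:**
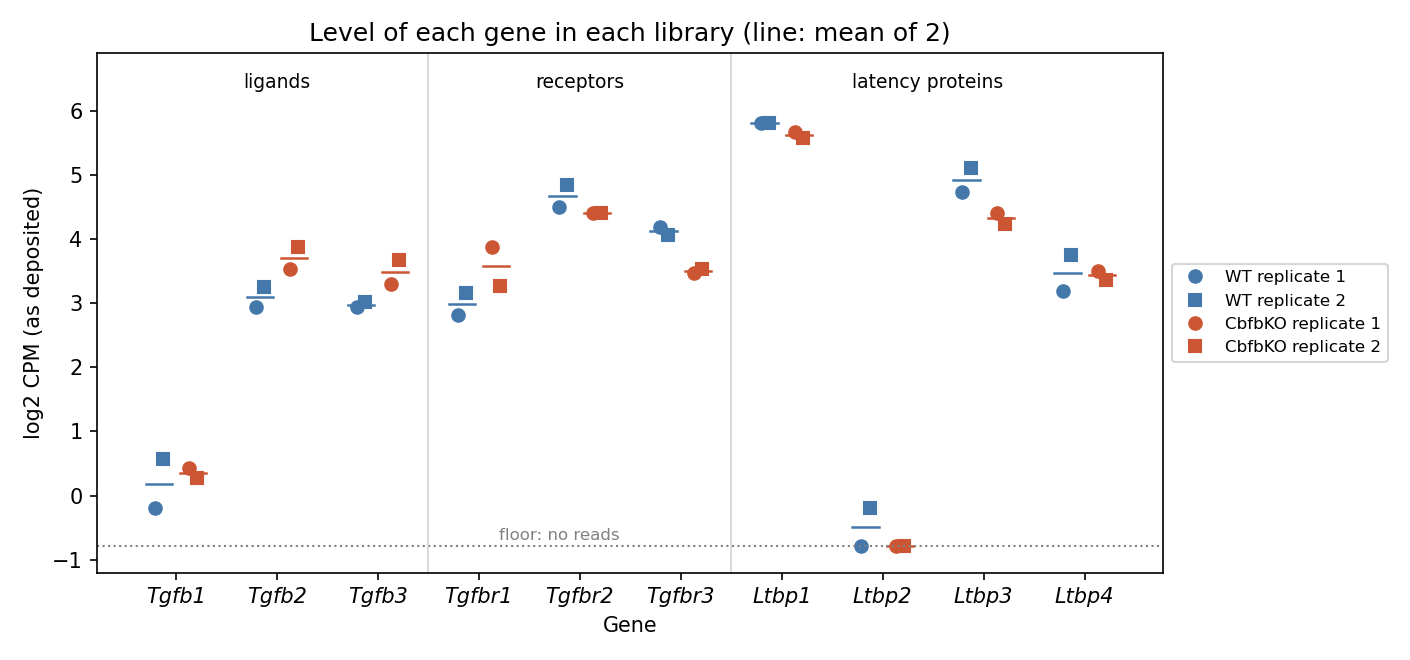
Level of each of the 10 genes in log2 CPM (vertical axis) in the 2 WT libraries (blue) and the 2 CbfbKO libraries (red), with circles for replicate 1, squares for replicate 2 and a line at the mean of each group. Tgfb1 and Ltbp2 lie near the floor of genes without reads in every library, and Ltbp1 is the highest gene in every library.

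Among the ligands, Tgfb2 and Tgfb3 had similar numbers of reads in MC38 cells and Tgfb1 had almost none. Whether reads from the 3′ end of Tgfb1 were missed was not tested. Tgfb1, the ligand that most tissues and immune cells make in the largest amounts, had 1 and 3 reads in WT libraries and 3 and 2 in CbfbKO libraries. It took between 2.04% and 5.17% of the ligand reads of a library. In the WT library with 1 Tgfb1 read, the exact 95% interval of this level ran from 0.00745 to 1.64 CPM. Such intervals cover counting error only, since reads from amplified libraries are not independent molecules. With 4 reads in all in WT and 5 in CbfbKO, the ratio of CbfbKO to WT was 1.19 with a counting interval from 0.255 to 5.97. All but large differences in Tgfb1 were therefore undetectable at this depth. Its libraries overlapped. Its fitted difference on the log2 scale was 0.17 (limma adjusted p = 0.927), and became 0.31 with a prior count of 0.5 and -0.21 without WT replicate 1. On the GRCm38 assembly Tgfb1 lies on the plus strand of chromosome 7 (25687002 to 25705077).

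Tgfb2, a ligand known for its roles in heart, eye and neural crest development, had 24 and 30 reads in WT and 43 and 45 in CbfbKO libraries. These were 7.07 and 9.00 CPM in WT and 11.0 and 14.1 CPM in CbfbKO, so that both CbfbKO libraries lay above both WT libraries. It stood at 3.10 ± 0.23 log2 CPM (SD, n = 2) in WT and 3.71 ± 0.24 (SD, n = 2) in CbfbKO cells. The difference was 0.61 on the log2 scale (standard error, SE, of 0.27, 95% interval 0.06 to 1.16), with an unadjusted p of 0.0318 and a limma adjusted p of 0.271. Tgfb2 lies on the minus strand of chromosome 1 (186622792 to 186705989).

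Tgfb3, which is known for its part in closure of the palate, had 24 and 25 reads in WT and 36 and 39 in CbfbKO libraries. The CbfbKO libraries were again the higher pair, at 9.21 and 12.2 CPM against 7.07 and 7.50 CPM. It stood at 2.97 ± 0.056 log2 CPM (SD, n = 2) in WT and 3.49 ± 0.27 (SD, n = 2) in CbfbKO. The difference was 0.51 (SE 0.28, 95% interval -0.06 to 1.08), with a limma adjusted p of 0.408. With 1 library left out it ran from 0.32 to 0.70. Tgfb3 lies on the minus strand of chromosome 12 (86056745 to 86079041).

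The balance between the ligands differed little among libraries. Tgfb2 made up 49.0% and 51.7% of the ligand reads in WT and 52.4% and 52.3% in CbfbKO, and the exact 95% binomial intervals of these shares, the widest from 34.4% to 63.7%, all overlapped. Summed over the 3 ligands, the WT libraries held 49 and 58 reads and the CbfbKO libraries 82 and 86. In CPM this was 14.4 and 17.4 in WT and 21.0 and 27.0 in CbfbKO, and no test was made on the sum.

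**Figure D2:**
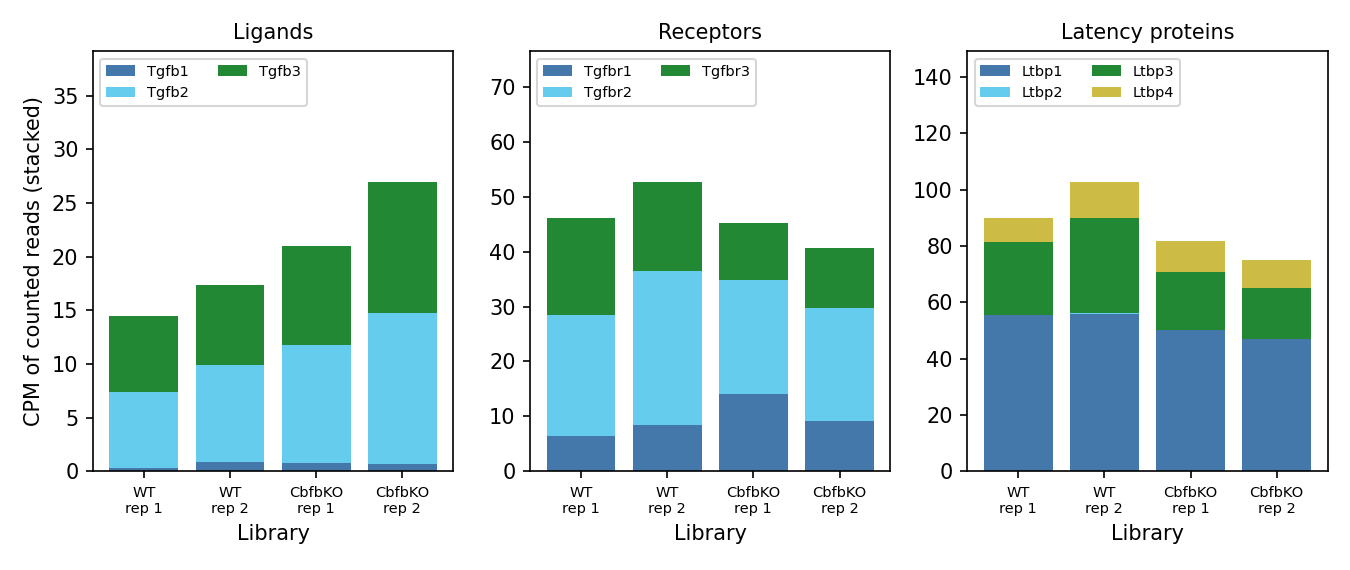
CPM of counted reads (vertical axes, which differ in scale) stacked over the ligand, receptor and latency protein genes in each of the 4 libraries. The ligand bars are 14.4 and 17.4 CPM high in WT and 21.0 and 27.0 in CbfbKO libraries, the receptor bars lie between 40.8 and 52.8, and the latency protein bars lie at 90.1 and 103 in WT and at 81.6 and 74.9 in CbfbKO.

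Among the receptors, the type I receptor had a positive fitted difference and both other receptors a negative one, none past the threshold. Tgfbr1 encodes the type I receptor kinase that phosphorylates the SMADs. It had 22 and 28 reads in WT and 55 and 29 in CbfbKO libraries. CbfbKO replicate 1 stood apart at 14.1 CPM, while CbfbKO replicate 2 at 9.09 CPM was close to the higher WT library at 8.40 CPM. It stood at 2.99 ± 0.25 log2 CPM (SD, n = 2) in WT and 3.57 ± 0.42 (SD, n = 2) in CbfbKO. The difference was 0.58 (SE 0.29, 95% interval -0.009 to 1.17, limma adjusted p = 0.343). Without CbfbKO replicate 1 it was 0.28, and without CbfbKO replicate 2 it was 0.88. Tgfbr1 lies on the plus strand of chromosome 4 (47353222 to 47414931).

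Tgfbr2 encodes the type II receptor kinase that binds the ligand and activates the type I receptor. It was the highest of the receptor genes in every library, with 75 and 94 reads in WT and 81 and 66 in CbfbKO. The CbfbKO libraries were alike at 20.7 and 20.7 CPM, and the WT libraries lay above them at 22.1 and 28.2 CPM. It stood at 4.67 ± 0.24 log2 CPM (SD, n = 2) in WT and 4.41 ± 0.0015 (SD, n = 2) in CbfbKO, a difference of -0.26 (SE 0.18, 95% interval -0.64 to 0.11, limma adjusted p = 0.552). With 1 library left out it ran from -0.43 to -0.09. The gap between the WT libraries was larger than that between the nearest WT and CbfbKO libraries. Tgfbr2 lies on the minus strand of chromosome 9 (116084293 to 116175360).

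Tgfbr3 encodes betaglycan, a co-receptor without kinase activity that presents ligand, TGF-beta 2 above all, to the type II receptor and whose shed form binds ligand away from it. It had 60 and 54 reads in WT and 41 and 35 in CbfbKO libraries, or 17.7 and 16.2 CPM against 10.5 and 11.0 CPM. Both groups were tight and did not overlap. It stood at 4.13 ± 0.086 log2 CPM (SD, n = 2) in WT and 3.50 ± 0.044 (SD, n = 2) in CbfbKO. The difference was -0.63 (SE 0.23, 95% interval -1.10 to -0.16), which corresponds to 64.7% of the WT level, with an unadjusted p of 0.0103 and a limma adjusted p of 0.160. It stayed between -0.69 and -0.57 with each library left out in turn. Tgfbr3 lies on the minus strand of chromosome 5 (107106570 to 107289629).

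Of the receptor reads, Tgfbr1 took 14.0% and 15.9% in WT and 31.1% and 22.3% in CbfbKO libraries. Tgfbr3 took 38.2% and 30.7% in WT and 23.2% and 26.9% in CbfbKO. The sums over the 3 receptors were 46.2 and 52.8 CPM in WT and 45.3 and 40.8 in CbfbKO. The groups did not overlap, with a gap between the nearest WT and CbfbKO libraries that was smaller than the gap within either group, and no test was made on the sum.

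Among the latency proteins, Ltbp1 was the most abundant, Ltbp3 came closest of the 10 genes to the threshold, and Ltbp2 was barely detected. Ltbp1 binds the propeptides of all the TGF-beta ligands and ties the latent complex to fibronectin and fibrillin in the matrix. It had 189 and 186 reads in WT and 196 and 150 in CbfbKO libraries, or 55.7 and 55.8 CPM against 50.2 and 47.0 CPM. The WT libraries agreed closely and both CbfbKO libraries were lower. It stood at 5.81 ± 0.0022 log2 CPM (SD, n = 2) in WT and 5.62 ± 0.065 (SD, n = 2) in CbfbKO, a difference of -0.20 (SE 0.12, 95% interval -0.44 to 0.05, limma adjusted p = 0.478).

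Ltbp1 lies on the plus strand of chromosome 17 (75005568 to 75392512) and is known to be made in a long and a short form from separate start sites. The forms end alike, and 3′ reads do not tell them apart. Because CBFβ strengthens the binding of RUNX proteins to DNA, the promoter windows were searched for TGTGGT, the core of the RUNX motif, on both strands. RefSeq (GRCm38.p6) gave 12 windows for 8 of the 10 genes, each with 250 bases before and 50 after a start site. The letters were found in 1 of the 12 windows, at the internal start site of Ltbp1 (75178781), where they occur 2 times on the strand of the gene. Of all 32851 windows 16.8% held them on either strand. The matches are shown with 12 bases on either side and the motif letters in capitals, first the one that begins 71 bases before the start site (chr17:75178698-75178727, plus strand) and then the one 33 bases before it (chr17:75178736-75178765, plus strand). They show where such letters lie in this family, and a match is not evidence of binding.
Ltbp1, 71 bases before the start: aaagtgcagcatTGTGGTtagtaatcccac
Ltbp1, 33 bases before the start: ctcgacttcaaaTGTGGTtttggagtgcat

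Ltbp3, a latency protein known from its roles in bone and tooth enamel, had 88 and 113 reads in WT and 81 and 58 in CbfbKO libraries. These were 25.9 and 33.9 CPM in WT and 20.7 and 18.2 CPM in CbfbKO, with no overlap. It stood at 4.92 ± 0.27 log2 CPM (SD, n = 2) in WT and 4.32 ± 0.13 (SD, n = 2) in CbfbKO. The difference was -0.60 (SE 0.18, 95% interval -0.97 to -0.22), which corresponds to 66.2% of the WT level, with an unadjusted p of 0.00309 and a limma adjusted p of 0.0782. It passed the threshold with the replicate number as a block (limma adjusted p = 0.0280) and with a minimum of 5 CPM (limma adjusted p = 0.0309), and over all alternatives its adjusted p ranged from 0.0280 to 0.789. Its difference in the block and 5 CPM fits was again -0.60, with an SE of 0.18, while the mean total degrees of freedom were 12200 and 122, against 23.2 in the fit above. Without WT replicate 2 its difference was -0.41, and without WT replicate 1 it was -0.79. Ltbp3 lies on the plus strand of chromosome 19 (5740904 to 5758532). How reads from bases that annotated genes share were counted is not given in the sources used here, and the part of such reads in the Ltbp3 difference was not tested.

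Ltbp4, a latency protein that is also needed for elastic fibres, had 29 and 43 reads in WT and 42 and 31 in CbfbKO libraries. The groups overlapped, at 8.54 and 12.9 CPM in WT and 10.7 and 9.72 CPM in CbfbKO. Its difference was -0.04 (SE 0.27, 95% interval -0.59 to 0.51, limma adjusted p = 0.972), and its sign changed without WT replicate 2 (0.24) and without CbfbKO replicate 2 (0.03). Ltbp4 lies on the minus strand of chromosome 7 (27305136 to 27337692).

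Ltbp2, a matrix protein of the family that does not bind latent TGF-beta, had 0 and 1 reads in WT and 0 and 0 in CbfbKO libraries. By the usual one-sided limit a count of 0 allows up to 3 reads, which was 0.883 CPM in WT replicate 1 and 0.768 and 0.941 CPM in the CbfbKO libraries, and no fold change is given. Ltbp2 lies on the minus strand of chromosome 12 (84783212 to 84876532). Summed over the 4 latency proteins, the libraries held 90.1 and 103 CPM in WT and 81.6 and 74.9 CPM in CbfbKO. No test was made on this sum.

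**Figure D3:**
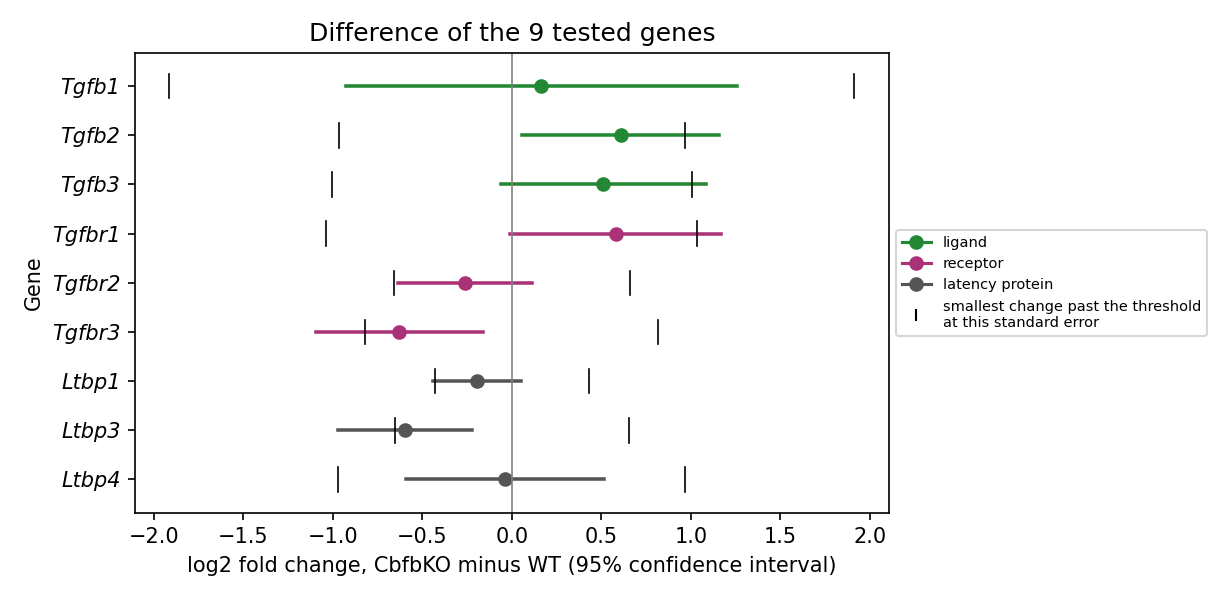
Log2 fold change (horizontal axis, CbfbKO minus WT) of the 9 tested genes with 95% confidence intervals from limma, coloured by role. Black ticks mark the smallest change that would have passed the threshold at each gene's standard error, and every point lies inside its ticks, Ltbp3 at -0.60 being nearest to its tick at 0.65 in size.

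The standard errors of this fit, over 2 libraries a group, set how large a difference could be called. The largest unadjusted p among called genes was 0.00139. At its own standard error, a change of at least 0.97 on the log2 scale would have been needed for Tgfb2, 1.04 for Tgfbr1 and 0.82 for Tgfbr3. The best covered gene, Ltbp1, needed 0.43, and Tgfb1 needed 1.91. The intervals above therefore leave room for differences in either direction for Tgfb1, Tgfb3, Tgfbr1, Tgfbr2, Ltbp1 and Ltbp4. Those of Tgfb2, Tgfbr3 and Ltbp3 cover a single direction, but they are not adjusted for the number of genes tested. None of these genes passed the threshold, so their direction is not established either. An exact permutation test of 2 libraries against 2 cannot give a p under 0.33.

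**Figure D4:**
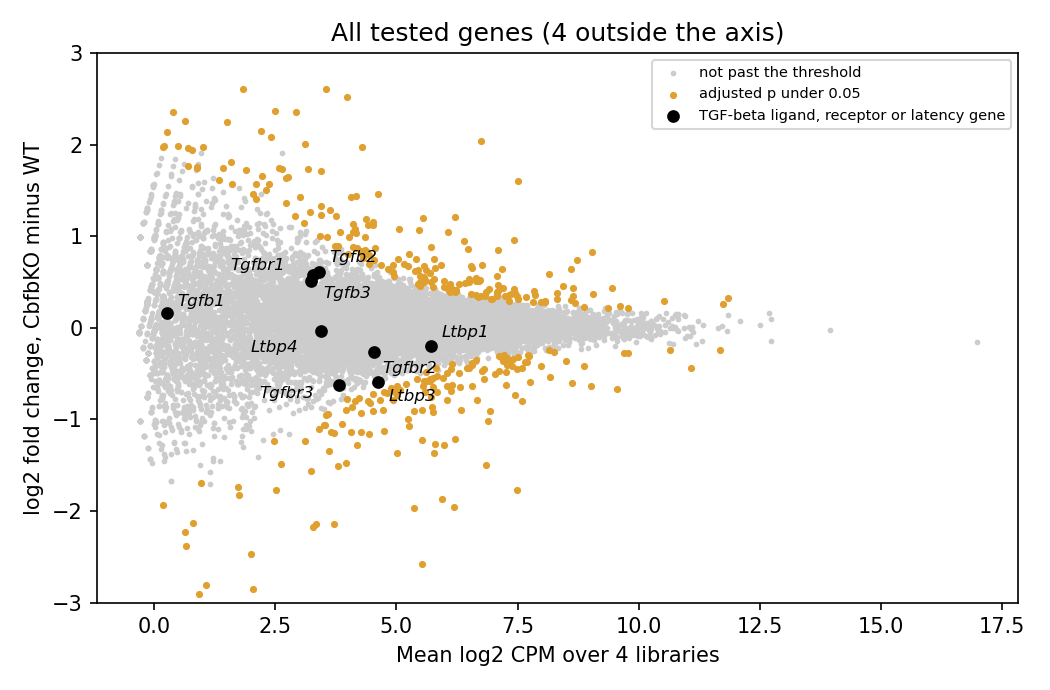
Log2 fold change (vertical axis, CbfbKO minus WT) against mean log2 CPM over the 4 libraries (horizontal axis) for the 12207 tested genes, with called genes in orange and the 9 tested TGF-beta ligand, receptor and latency protein genes in black. The black points lie within the grey cloud of genes that were not called, and 4 genes fall outside the vertical range.

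Ordered by level within WT cells, the genes ran from Ltbp1 (5.81 log2 CPM) through Ltbp3 (4.92), Tgfbr2 (4.67), Tgfbr3 (4.13), Ltbp4 (3.47), Tgfb2 (3.10), Tgfbr1 (2.99) and Tgfb3 (2.97) to Tgfb1 (0.18) and Ltbp2 (-0.49). The libraries of Ltbp1 lay above those of all other members, at a level above that of 72.1% of the tested genes. Neighbours whose WT libraries overlapped were Ltbp3 and Tgfbr2, all neighbours from Ltbp4 down to Tgfb3, and Tgfb1 and Ltbp2. In CbfbKO cells Ltbp1 was again the highest, followed by Tgfbr2 and Ltbp3, which overlapped each other. The 5 genes below them, Tgfb2, Tgfbr1, Tgfbr3, Tgfb3 and Ltbp4, lay between 3.43 and 3.71 log2 CPM, and each overlapped its neighbour. Tgfbr3 was the fourth of the 10 in WT and the sixth in CbfbKO, and Tgfb2 was the sixth in WT and the fourth in CbfbKO.

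Other genes of the pathway were read from the same fit as 4 lists. All 4 were written with earlier results of these libraries known, so that their shares of called genes are not independent evidence. The list named here for its activin branch holds other ligands, inhibitors and receptors of the TGF-beta superfamily, some of which, such as Amh and its receptor, act through other SMADs. Of 26 listed, 9 were tested and 0 were called by limma (2.83% of all tested genes were), with a median log2 fold change of 0.29. This median is the value of Lefty1, which had 2 and 0 reads in WT and 1 and 2 in CbfbKO libraries. At an unadjusted p under 0.05, where 14.9% of all tested genes lay, there were 2, Inhba and Fst, and Fst rested on 1 and 0 reads in WT and 2 and 7 in CbfbKO. Inhba, which encodes the subunit of activin A, was by far the most abundant gene of the list. It had 212 and 239 reads in WT and 335 and 280 in CbfbKO libraries, which did not overlap, a difference of 0.37 (SE 0.10, limma adjusted p = 0.0542). It passed the threshold in voom on the recovered reads, with the replicate block and with a minimum of 5 CPM, with an adjusted p of 0.0195 at the lowest and 0.647 at the highest over all alternatives. Fstl3 and Gdf11, the next most abundant, had adjusted p-values of 0.476 and 0.944 from limma.

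Among proteins that dock latent TGF-beta or release the ligand, 25 of 37 listed genes were tested. By limma, 3 were higher and 1 was lower in CbfbKO, and 21 did not pass (16% called, against 2.83% of all tested genes), with a median log2 fold change of -0.02. Itgav encodes integrin αV, the chain shared by the integrins that pull latent TGF-beta open. It rose from 133 and 116 reads in WT to 202 and 170 in CbfbKO libraries, by 0.50 on the log2 scale (SE 0.13, limma adjusted p = 0.0313). Itgb1, which encodes integrin β1, a partner of αV and of many other chains, rose by 0.23 (SE 0.060, limma adjusted p = 0.0355) on 1427 to 1984 reads a library. Of the other integrin β chain genes listed, Itgb5 differed by -0.16 (limma adjusted p = 0.742). Itgb3, Itgb6 and Itgb8 were too low to test, with 0 and 1, 0 and 0, and 1 and 0 reads in WT. In CbfbKO libraries these had 4 and 1, 0 and 1, and 2 and 0 reads. Integrin protein was not measured. Mmp9, a gelatinase that can cleave latent TGF-beta, rose from 39 and 31 reads to 122 and 86, by 1.44 (SE 0.21, limma adjusted p = 6.84e-05). Thbs2, a matrix thrombospondin that lacks the activating sequence of thrombospondin 1, fell by 0.48 on the log2 scale (SE 0.12, limma adjusted p = 0.0276). Mmp14 and Furin, the membrane metalloprotease and the convertase that cuts the ligand from its propeptide, were among the most abundant genes of the list, with differences of -0.15 and 0.14 and adjusted p-values of 0.486 and 0.563 from limma. With 1 library left out they ran from -0.29 to -0.0070 and from 0.08 to 0.20. Thbs2, Itgav and Itgb1 were not called when any 1 of the 4 libraries was left out, with quantile normalization, without the filter, without the trend or at a threshold of 0.01. The 4 calls became 1 without WT replicate 1, 1 without WT replicate 2 and 0 without either CbfbKO library.

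Of the SMADs and their regulators, 34 of 36 listed genes were tested, 1 was higher, 1 was lower and 32 did not pass (5.88% called, against 2.83% of all tested genes), with a median log2 fold change of 0.07. Pmepa1, which encodes a membrane protein that keeps SMAD2 and SMAD3 from the receptor, was the higher gene (1.60, standard error 0.078, limma adjusted p = 1.26e-12). Smad7, which encodes the inhibitory SMAD that directs the type I receptor to degradation, fell from 57 and 51 reads in WT to 26 and 31 in CbfbKO libraries, by 0.94 on the log2 scale (SE 0.25, limma adjusted p = 0.0439). Both are feedback inhibitors that TGF-beta itself is known to induce, and here they differed in opposite directions. Fkbp1a, which encodes a protein that binds the inactive type I receptor, and Strap, which encodes a partner of SMAD7, were the most abundant besides Pmepa1, with differences of 0.13 and 0.09 and adjusted p-values of 0.285 and 0.635 from limma. With 1 library left out they ran from 0.10 to 0.16 and from 0.03 to 0.15. Smad7 was not called when any 1 of the 4 libraries was left out, and Pmepa1 was not called without either CbfbKO library, where its difference was 1.55 and 1.65 and the total degrees of freedom were 4.04.

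Of the genes known to respond to TGF-beta, 40 of 53 counted were tested. In CbfbKO cells 9 were higher, 4 were lower and 27 did not pass (32.5% called, against 2.83% of all tested genes), with a median log2 fold change of 0.15. The list was written with earlier results of these libraries known, so that this share is not independent evidence of its direction. The higher genes were Pmepa1, Sparc, Jag1, Mmp9, Cdkn1a, Id1, Col5a1, Timp1 and Il11, and the lower genes were Tpm1, Col3a1, Id2 and Smad7. Jag1, a Notch ligand, rose from 77 and 73 reads in WT to 183 and 155 in CbfbKO libraries (1.08, standard error 0.15, limma adjusted p = 3.43e-05). Tpm1, a tropomyosin of actin filaments, fell by 0.67 on the log2 scale (SE 0.055, limma adjusted p = 1.61e-08), and Col3a1, a fibrillar collagen that is also among the fibroblast markers counted above, fell by 0.90 (SE 0.10, limma adjusted p = 2.46e-06). Tsc22d1, among the most abundant genes of the list, differed by -0.09 (limma adjusted p = 0.577), and by -0.13 to -0.05 with 1 library left out. Of the 13 called genes, 3 (Pmepa1, Mmp9 and Smad7) are also in another list. The 13 calls became 8 without WT replicate 2, and 0 without CbfbKO replicate 1 or CbfbKO replicate 2.

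**Figure D5:**
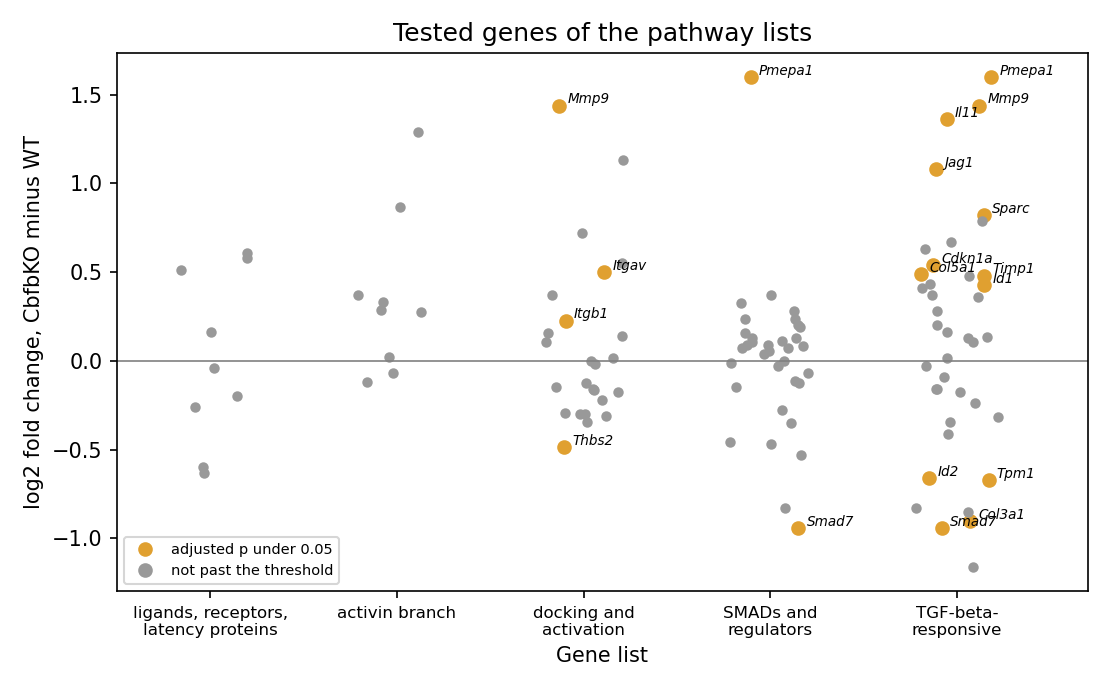
Log2 fold change (vertical axis, CbfbKO minus WT) of each tested gene among the TGF-beta ligands, receptors and latency proteins and in the 4 pathway lists, with genes past an adjusted p of 0.05 in orange and named. No ligand, receptor or latency gene and no activin branch gene is orange, against 4 genes of docking and activation, 2 of the SMADs and 13 of the responsive genes, and points are spread sideways only to be seen.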

How the data were processed

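RNA of 2 WT (sgNT) and 2 CbfbKO (sgCbfb) samples of MC38 cells was profiled with the QuantSeq 3′ mRNA kit. Per the submitters' processing notes and the study's methods, reads were trimmed with cutadapt 1.9, aligned to GRCm38/mm10 with HISAT2 2.1.0 and counted per gene with featureCounts (2.0.1 in the notes). The authors deposited log2 CPM values, 1 column per library, scaled to library totals. The annotation release, use of strand and treatment of reads shared by genes are not given in the sources used here. Reads were recovered from the values, which step by whole reads (99.99% or more of low values within 0.1 of a whole number), and show a prior count of 2.

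The test took the 12207 genes that reached a log2 CPM of 0 in 2 or more libraries. It was run with limma 3.58.1 in R 4.3.3 (lmFit, eBayes with trend, two-sided, Benjamini-Hochberg adjustment over all tested genes, threshold 0.05), after a check on simulated data. The study's methods name voom with limma, which needs counts, so voom on recovered reads was an alternative. The others were no filter, a minimum of 5 CPM, quantile normalization, median centring, no trend, the replicate block, a threshold of 0.01, leaving out each library in turn and, chosen after seeing the data, a prior count of 0.5. Confidence intervals are at 95%.

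The members, lists and alternatives were chosen with earlier results of these data known. All 10 members and Cbfb are named. Of each list, the 6 called genes with the smallest p-values and the 3 most abundant are named. Fst, Lefty1, Itgb3, Itgb5, Itgb6, Itgb8 and the remaining called genes of the response list were named after their values were seen. A gene of the response list was taken out of it after its value was seen and is in none of its counts, and it and 1 other item are not reported here. The rule kept promoter sequence for members past the threshold, of which there were none, so the Ltbp1 stretches were likewise shown after the values were seen. Positions are from GENCODE M21. Figures were drawn with matplotlib 3.10.9 in Python 3.11.15.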

Additional observations from a re-analysis of the deposited data

How the results depend on the processing

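The sign of the difference held under all 13 alternatives for Tgfb2, Tgfb3, Tgfbr1, Tgfbr2, Tgfbr3, Ltbp1 and Ltbp3. For most alternatives this was fixed in advance. The groups did not overlap for these 7 genes, so that leaving out 1 library could not turn the sign. No filter, the minimum of 5 CPM, no trend, the replicate block and the 0.01 threshold leave the difference itself unchanged. With single libraries left out, the difference ranged from -0.21 to 0.55 for Tgfb1, from -0.32 to 0.24 for Ltbp4 and from -0.30 to 0.17 for Gdf11. The sign turned for Tgfb1 without WT replicate 1 (-0.21), for Ltbp4 without WT replicate 2 (0.24) and without CbfbKO replicate 2 (0.03), and for Gdf11 without WT replicate 2 (0.0023) and without CbfbKO replicate 1 (0.17). The replicate block and the minimum of 5 CPM each gave 1 lower member, Ltbp3, in place of 0, and in the activin branch they and voom gave 1 call, Inhba, in place of 0. Counts over all genes (192 higher, 153 lower) became 320 and 215 with the replicate block and 300 and 209 with at least 5 CPM. They became 40 and 48 under quantile normalization (45.5% of calls higher, against 55.7%) and 103 and 97 at the 0.01 threshold. Without the filter they were 2 and 53, and without the trend 0 and 0 (1461 at an unadjusted p under 0.05 by limma). Calls in the docking list (4), SMAD list (2) and response list (13) became 1, 1 and 6 with quantile normalization and 0, 0 and 0 without the filter or without the trend, and the first 2 became 1 and 1 at the 0.01 threshold. With single libraries left out, the counts ranged from 0 to 115 higher and 0 to 86 lower over all genes, and from 0 to 1, 0 to 1 and 0 to 10 in these lists. Fits without a CbfbKO library estimate the spread from the WT pair alone, with 4.04 total degrees of freedom against 23.2, and the remaining CbfbKO library is assumed to vary like them. The deviations of libraries with the same number were not correlated (-0.0042), the labels do not say what they share, and the block changed no other member's call. A prior count of 0.5 on the recovered reads, chosen after seeing the data, gave 157 higher and 136 lower genes, 0 members and 1 gene of the SMAD list, with Smad7 no longer called (limma adjusted p = 0.0576). At this depth, the members with 22 to 60 reads a library have standard errors of 0.23 to 0.29. The causes of these changes were not tested.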
